A study of Homo sapiens with 12 samples.

Results

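Transcript levels of 29 genes of DNA damage signalling and repair were examined in the human cell line OCI-LY1, which derives from a diffuse large B-cell lymphoma. The 29 were chosen by name and not by a rule on their values, though earlier results of these data were known. They are found among 59490 annotated features with a name of their own. Of the 29, 28 code for proteins. The remaining member, AC109992.1, is a processed pseudogene that lies within ATR on the other strand. Polyadenylated RNA was measured in 12 stranded libraries, 3 in each of 4 groups. The groups were parental cells given 1 µM decitabine for 3 days, parental cells given the vehicle DMSO, OCI-LY1R cells given the same decitabine treatment, and OCI-LY1R cells given vehicle. OCI-LY1R is a derivative of the line that was made resistant to venetoclax, a BCL2 inhibitor, by exposure to rising concentrations up to 1 µM. It is a single selected line, so a difference from parental cells may belong to that line and not to resistance in general.

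Damaged DNA is sensed by large kinases, ATM and PRKDC at broken ends and ATR at single-stranded stretches coated by the RPA proteins. They activate the kinases CHEK1 and CHEK2 and recruit adaptors such as TP53BP1 and BRCA1, and the break is then rejoined directly or copied from the sister chromatid. Decitabine is a deoxycytidine analogue that is built into DNA and traps DNA methyltransferases there, which removes methylation and leaves protein bound to DNA. Further members belong to base excision, mismatch, nucleotide excision and Fanconi anaemia repair.

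Decitabine acts on the methylation of CG dinucleotides, and 2 members passed the test in a decitabine comparison described below, RPA1 in parental cells and PALB2 in resistant cells. Their promoters are shown for that reason, with every CG in capitals, from 250 bases before to 50 bases after the RefSeq start on GRCh38.p14. The RPA1 window is chr17:1829755-1830054 on the plus strand and the PALB2 window is chr16:23641261-23641560 on the minus strand, each written 5′ to 3′ on the strand of its gene.
RPA1: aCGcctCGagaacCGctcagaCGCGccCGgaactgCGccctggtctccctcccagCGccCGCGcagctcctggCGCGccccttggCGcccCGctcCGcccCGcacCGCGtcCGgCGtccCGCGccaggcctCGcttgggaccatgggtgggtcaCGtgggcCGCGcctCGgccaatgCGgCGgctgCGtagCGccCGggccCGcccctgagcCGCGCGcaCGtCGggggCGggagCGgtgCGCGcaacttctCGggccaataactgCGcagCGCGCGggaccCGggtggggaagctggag
PALB2: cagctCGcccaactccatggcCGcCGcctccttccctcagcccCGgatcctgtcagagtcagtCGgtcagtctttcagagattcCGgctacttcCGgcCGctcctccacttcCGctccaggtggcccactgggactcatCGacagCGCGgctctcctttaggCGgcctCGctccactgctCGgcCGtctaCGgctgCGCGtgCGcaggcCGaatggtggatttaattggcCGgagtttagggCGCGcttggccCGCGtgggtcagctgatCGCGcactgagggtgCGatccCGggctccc
The motif CG, which reads the same on both strands, occurred 48 times in the RPA1 window. Of 35116 promoter windows of the same length, 1.98% hold at least 48. PALB2 had 30, a number that 22.4% of all windows reach. RefSeq promoters were matched for 22 members, with 36 windows that held 5 to 48 CG (median 25.5), against a median of 14 over all windows. Methylation itself was not measured in these libraries, and a link between the number of CG and either call was not tested.

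Levels are TPM, an abundance normalised for length that the authors scaled to the same total in each library. TPM keep no library size, so the depth is unknown and no counting interval is given. Nothing in the labels says that replicates were separate cultures, and p-values then reflect only how far libraries of a group spread, which may be technical. Parental libraries are named by replicate number. Those of the resistant line have the letters a, b and c in each group, with no link between equal letters. Parental decitabine replicate 3 stood apart from all other libraries and is given apart throughout. Its 8 B-cell and germinal-centre markers summed to 3187 TPM, against 33.1 to 179 TPM in the other 11 libraries. The 4 T-cell markers summed to at most 0.672 TPM in those 11, with CD3D, CD3E and CD2 at 0, and the 4 myeloid markers to at most 1.39 TPM. The 5 epithelial or stromal markers summed to 1.77 to 22.4 TPM in resistant decitabine libraries, against 0 to 2.98 TPM in resistant vehicle libraries, with KRT18, COL1A1 and PDGFRB at 0. In parental cells B-cell markers summed to 33.1 to 45.6 TPM under decitabine without replicate 3, against 56.1 to 150 TPM under vehicle. In resistant cells B-cell markers summed to 127 to 179 TPM under decitabine, against 43.5 to 140 TPM under vehicle. The part of these markers in the repair genes' values was not tested. In bulk RNA, fewer cells of a type and less RNA per cell cannot be told apart. The strand setting of the authors' counting is not given either, as described below. The marker sums may therefore not be the markers' own messenger RNA, and they are not read as cell content.

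**Figure D1:**
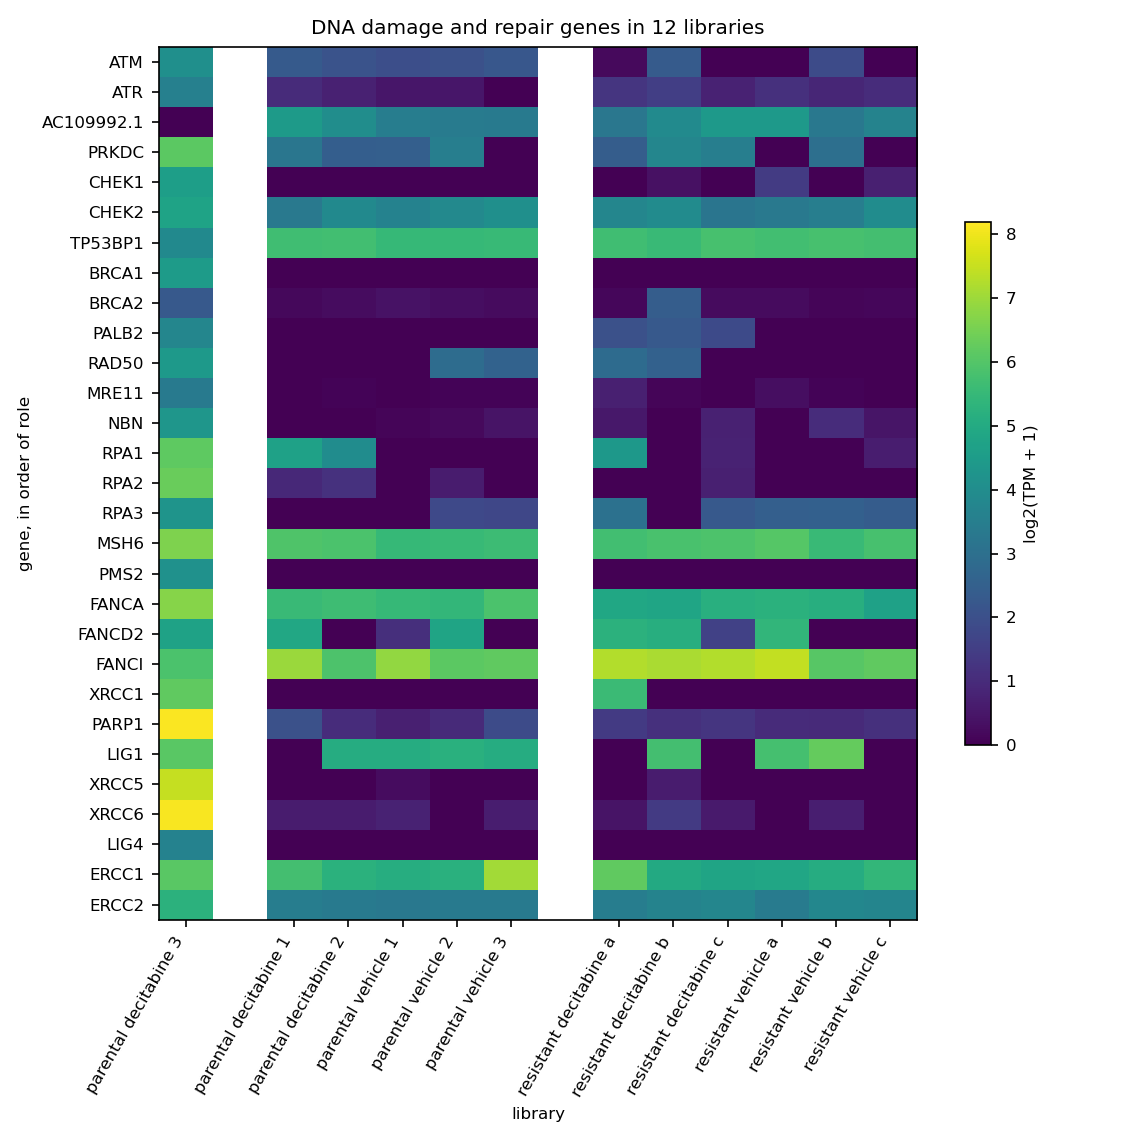
Level of each of the 29 genes (rows, by role) in each of the 12 libraries (columns), as log2(TPM + 1), with parental decitabine replicate 3 apart at the left. Replicate 3 held 28 members at 1 TPM or more, against 11 to 18 members in each of the other 11 libraries.

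Of the 29 members, 17 averaged under 5 TPM and 12 under 1 TPM over 11 libraries, while 27 of the 28 coding members had at least 5 TPM in parental decitabine replicate 3. The 28 coding members had a median of 25.7 TPM in replicate 3 (range 3.87 to 282 TPM), and the median of their means over the other 11 libraries was 2.11 TPM. Replicate 3 was above all 11 others in 22 of 28 coding members, and in 22 of the 27 that had at least 5 TPM there (81.5%). Among all 8608 coding genes with at least 5 TPM in replicate 3, the share was 84.3%, so the members' share was close to that of coding genes at large. BRCA1, which directs breaks into homologous recombination, had 21.6 TPM in replicate 3 and was listed at 0 in all 11 others. The mismatch endonuclease PMS2 had 16.6 TPM and the end-joining ligase LIG4 11.5 TPM there, and both were also listed at 0 in the 11 others. PARP1, which marks strand breaks with poly(ADP-ribose), had 282 TPM in replicate 3, against 0.651 to 3.13 TPM elsewhere. The pair that form the Ku ring on broken ends showed the same split: XRCC6 had 275 TPM in replicate 3 and at most 1.63 TPM elsewhere, and XRCC5 had 176 TPM and at most 0.547 TPM. A value of 0 is taken only as listed at 0, not as a gene that is silent.

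The members that did have signal in the 11 libraries were mostly those with an exon of another gene on the opposite strand. In GENCODE 29 (GRCh38) 18 coding members had such an opposite exon and 10 had none. With an opposite exon, 10 of 18 averaged at least 5 TPM over the 11 libraries, and the median of their means was 8.02 TPM. Without an opposite exon, 1 of 10 reached 5 TPM, and the median was 0.294 TPM. That 1 gene was PRKDC, the end-joining kinase, with 5.62 TPM. In replicate 3 the order was turned round, with medians of 25.7 TPM with and 46.5 TPM without an opposite exon. The same split held over all coding genes with at least 5 TPM in replicate 3. Of 3650 such genes with an opposite exon, 50.9% averaged at least 5 TPM in the 11 libraries, against 5.45% of 4958 without, and the medians were 5.35 TPM and 0.129 TPM. The strand setting of the authors' counting is not given in the sources used here, so reads of a gene and of its antisense partner cannot be told apart, and the members' levels in the 11 libraries may not be their own messenger RNA.

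**Figure D2:**
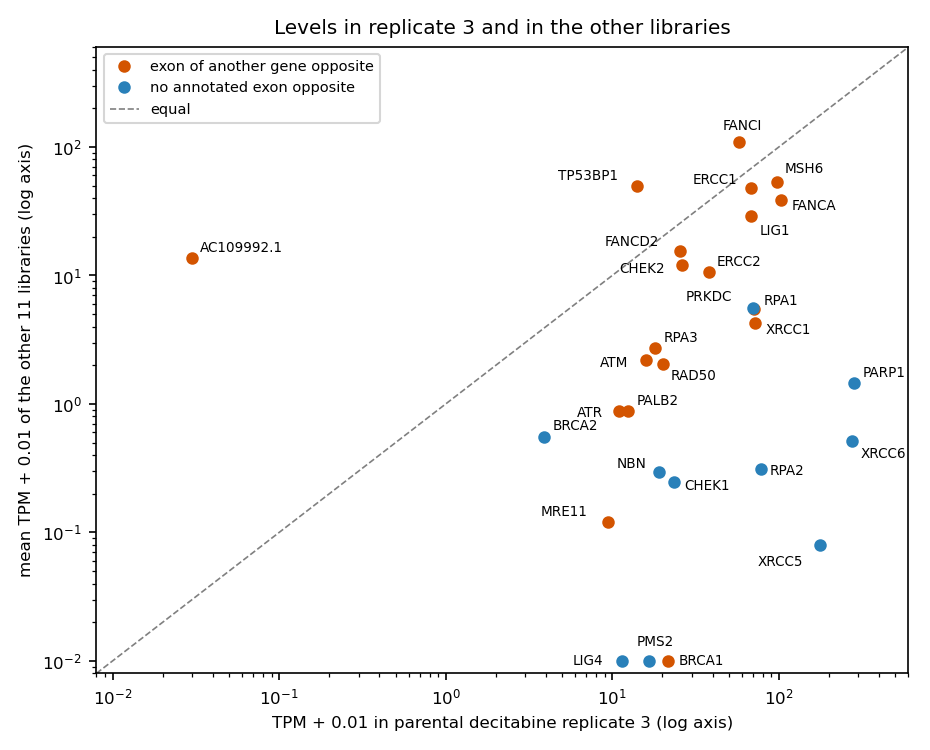
Level of each of the 29 genes in parental decitabine replicate 3 (x axis) and its mean over the other 11 libraries (y axis), both in TPM + 0.01 on log axes, with orange points for genes that have an exon of another gene opposite, blue points for genes that have none, and a dashed line of equal levels. Of the coding genes without an opposite exon, 9 of 10 lie under 5 TPM on the mean of 11, and the medians in replicate 3 are 46.5 TPM without and 25.7 TPM with an opposite exon.

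The ATR locus shows the pattern on both strands. ATR (chr3:142449235-142578826, minus strand) had 10.9 TPM in parental decitabine replicate 3. Elsewhere it had 1.02 and 0.697 TPM in parental decitabine libraries, 0.399, 0.411 and 0 TPM in parental vehicle libraries, 1.41, 1.89 and 0.719 TPM in resistant decitabine libraries, and 1.19, 0.838 and 1.08 TPM in resistant vehicle libraries. The pseudogene AC109992.1 (chr3:142450102-142452149, plus strand) has all of its 2048 bases opposite ATR exons, where they cover 16.4% of the exon length of ATR. It was almost absent from replicate 3, with 0.0198 TPM. The other 2 parental decitabine libraries had 21.2 and 15.3 TPM of AC109992.1, against 10.2, 9.66 and 9.38 TPM in parental vehicle libraries. In resistant cells it had 8.47, 14.3 and 20.2 TPM under decitabine, against 20.0, 8.67 and 11.8 TPM under vehicle. The 2 strands thus changed places: replicate 3 was highest of the 12 libraries for ATR and lowest for its pseudogene.

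Of 20 other features with exons opposite a member, 14 averaged at least 5 TPM over the 11 libraries, and 8 of the 14 were lower in replicate 3 than in all 11. The share over all features was not counted, so this is not read as particular to these loci. Next to FANCD2, the crosslink repair protein that is ubiquitinated together with FANCI, the opposite feature FANCD2OS was listed at 0 in replicate 3 and had 155 to 352 TPM elsewhere. The feature TH2LCRR, opposite the break-binding ATPase RAD50, was at 0 in replicate 3 and at 79.1 to 131 TPM elsewhere. ZNF276, opposite the Fanconi core complex member FANCA, had 9.07 TPM in replicate 3 and 104 to 194 TPM elsewhere. CD3EAP, opposite the nuclease subunit ERCC1, had 9.96 TPM in replicate 3 and 122 to 333 TPM elsewhere. KLC3, opposite the TFIIH helicase ERCC2, had 4.18 TPM against 31.3 to 48.1 TPM, and C11orf65, opposite ATM, had 1.33 TPM against 11.3 to 28.1 TPM. AC011466.3, opposite the replication ligase LIG1, had 0.707 TPM in replicate 3 and at least 7.80 TPM elsewhere, and TUBGCP4, opposite TP53BP1, had 12.01 TPM against 18.1 to 46.4 TPM. Not lower than all 11 in replicate 3 were HSCB (opposite CHEK2), UMAD1 (opposite RPA3), FBXO11 (opposite MSH6) and POLG (opposite FANCI). L34079.2 and L34079.3, both opposite XRCC1, were at 0 in replicate 3 and reached 111 and 94.5 TPM elsewhere. They were not counted as lower because some of the 11 libraries were at 0 too. Of the 12 members with a mean of at least 5 TPM over the 11 libraries, 9 had an opposite feature of at least 5 TPM. The share over all features was not counted for this either.

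Several members switched between 0 and a substantial level within a group. A gene was counted as switching where a group held both a library at 0 and a library at 5 TPM or more. This held for 7 of the 17 members with a mean of at least 1 TPM over the 11 libraries (41.2%), against 22.0% of 8505 features, a difference that was not tested. The 7 were PRKDC, RAD50, RPA1, RPA3, FANCD2, XRCC1 and LIG1. FANCD2 had 28.9 and 0 TPM in parental decitabine libraries, against 1.17, 26.4 and 0 TPM in parental vehicle libraries. In resistant cells FANCD2 had 37.9, 34.0 and 2.03 TPM under decitabine, against 41.3, 0 and 0 TPM under vehicle. Each pair of groups overlapped, and replicate 3 had 25.4 TPM. XRCC1, the scaffold of single-strand break repair, was at 46.7 TPM in resistant decitabine library a, at 72.0 TPM in replicate 3 and at 0 in the other 10 libraries. PRKDC had 8.32 and 4.43 TPM in parental decitabine libraries, against 4.54, 10.4 and 0 TPM under vehicle, and 69.5 TPM in replicate 3. In resistant cells PRKDC had 4.40, 12.5 and 10.4 TPM under decitabine, against 0, 6.91 and 0 TPM under vehicle.

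FANCI moved opposite to POLG, the mitochondrial DNA polymerase gene whose exons overlap it by 458 bases on the other strand. FANCI had 125 and 59.2 TPM in parental decitabine libraries, against 116, 69.5 and 72.9 TPM in parental vehicle libraries, and 57.9 TPM in replicate 3. In resistant cells FANCI had 150.3, 142 and 150.1 TPM under decitabine, against 174, 66.5 and 72.1 TPM under vehicle. The 6 libraries with more than 100 TPM of FANCI, which came from all 4 groups, had 116 to 174 TPM of FANCI and 3.76 to 14.2 TPM of POLG. The other 5 libraries had 59.2 to 72.9 TPM of FANCI and 58.7 to 73.2 TPM of POLG, while replicate 3 had 35.1 TPM of POLG. No library outside replicate 3 lay between these 2 states. In parental cells replicate 1 of each treatment had high FANCI and low POLG, and decitabine replicate 2 and vehicle replicates 2 and 3 did not. In resistant cells all 3 decitabine libraries and vehicle library a had it, and vehicle b and c did not. The letters follow the order of the deposited columns, so the library listed first in every group was in the state of high FANCI. The FANCI levels are therefore given with POLG beside them, and the reason for the split was not tested.

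**Figure D3:**
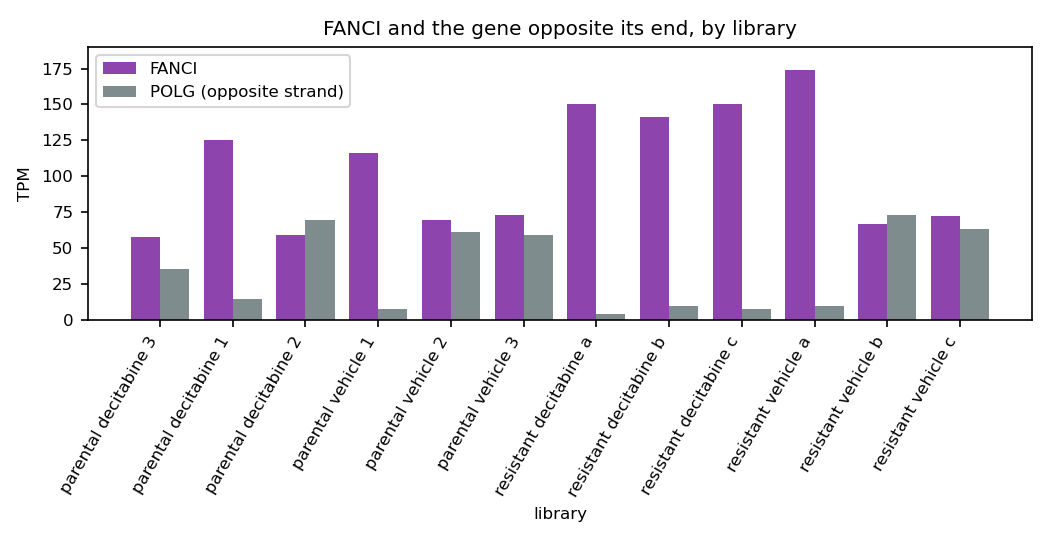
Level in TPM (y axis) of FANCI (purple bars) and of POLG on the opposite strand (grey bars) in each library (x axis). The POLG bar is short, at 3.76 to 14.2 TPM, in the 6 libraries with 116 to 174 TPM of FANCI, and about as tall as the FANCI bar, at 58.7 to 73.2 TPM, in 5 libraries.

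LIG1, which seals nicks in replication and repair, had 0 and 32.8 TPM in parental decitabine libraries, against 32.7, 35.8 and 33.0 TPM in parental vehicle libraries, and 68.4 TPM in replicate 3. In resistant cells LIG1 had 0, 52.8 and 0 TPM under decitabine, against 53.5, 76.4 and 0 TPM under vehicle. The 3 libraries with more than 50 TPM of LIG1 outside replicate 3 were resistant and had 7.80 to 10.1 TPM of AC011466.3 on the opposite strand, against 87.2 to 137 TPM in the other 8. ERCC1 had 52.8 and 36.3 TPM in parental decitabine libraries, against 33.7, 36.0 and 133 TPM in parental vehicle libraries, and 68.3 TPM in replicate 3. The parental vehicle library with 133 TPM of ERCC1 had 122 TPM of CD3EAP, the lowest of the 11, against 193 to 333 TPM in the others. In resistant cells ERCC1 had 72.6, 30.6 and 26.8 TPM under decitabine, against 27.6, 32.9 and 42.1 TPM under vehicle. Both pairs of groups overlapped for ERCC1 and for LIG1.

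The first comparison asked which repair genes decitabine moved in parental cells. RPA1, the largest subunit of the complex that coats single-stranded DNA, was the only member to pass the test. RPA1 (chr17:1829702-1900082, plus strand) had 24.8 and 14.9 TPM in parental decitabine libraries 1 and 2, against 0 TPM in all 3 parental vehicle libraries. It rose with an adjusted p of 0.0191 (limma, Benjamini-Hochberg), and no fold is printed because every vehicle library was at 0. For the same reason RPA1 passed the filter on low values only through the decitabine group. Its entry to the test thus depended on the difference tested, and the call adds little to the values. Replicate 3 had 70.4 TPM of RPA1. That is no further support, since 84.3% of all coding genes with at least 5 TPM there were above all 11 other libraries. Of the members, 24 of 29 were above all 3 vehicle libraries there, a share not counted over all features. The partners of RPA1 did not pass the filter on low values. RPA2 had 0.925 and 1.25 TPM under decitabine, against 0, 0.530 and 0 TPM under vehicle. RPA3 had 0 and 0 TPM under decitabine, against 0, 2.50 and 2.39 TPM under vehicle. SMYD4, whose exons overlap RPA1 by 156 bases on the other strand, had 0 and 1.78 TPM under decitabine, against 0 TPM in all 3 vehicle libraries. The RPA1 call was lost when any vehicle library was left out (adjusted p = 0.0826, 0.0822 and 0.0706 without vehicle 1, 2 and 3), with no filter on low values (0.0538) and with a stricter filter of 5 TPM (0.0584). With replicate 3 in the fit the adjusted p was 0.594.

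The limma fit in parental cells compared decitabine replicates 1 and 2 with 3 vehicle libraries, on log2(TPM + 1), and tested features that averaged 1 TPM or more. Of 29 members, 15 passed that filter, 1 rose and 0 fell, and 3 had an unadjusted p under 0.05. Over all 8122 features tested 1461 had an unadjusted p under 0.05 and 1.86% were called. A single call among 15 members is too few to set apart from that background. Decitabine and vehicle libraries did not overlap in 5 of 15 members (AC109992.1, ERCC2, MSH6, RPA1 and TP53BP1), against 39.4% of all features. The members' median log2 difference was 0.14 and that of all features was 0.21. Among all features 112 rose and 39 fell, so 74.2% of calls were rises, against 61.5% with quantile scaling and 53.9% with median-ratio scaling. Those scalings moved the median of all features to -0.02 and 0.04, and the members' median to -0.10 and -0.04. A member with a difference near 0.2 was therefore close to the middle of all features.

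Among members of steadier level, MSH6, the mismatch recognition subunit that binds single mispairs, had 60.3 and 58.0 TPM in parental decitabine libraries, against 43.7, 45.2 and 48.2 TPM in parental vehicle libraries. The means were 59.2 ± 1.64 TPM (SD, n = 2) under decitabine and 45.7 ± 2.28 TPM (n = 3) under vehicle, a log2 difference of 0.37 (SE 0.12, limma adjusted p = 0.222). The groups did not overlap, but the difference did not pass the test, and replicate 3 had 97.0 TPM. TP53BP1, the adaptor that shields broken ends from resection, had 50.2 and 51.6 TPM under decitabine, against 43.9, 43.6 and 44.7 TPM under vehicle, and 14.0 TPM in replicate 3. Its log2 difference was 0.20 (SE 0.11, limma adjusted p = 0.407), close to the median of all features, and was -0.39 with replicate 3 in the fit. The pseudogene AC109992.1 had a log2 difference of 0.82 (SE 0.22, 95% interval 0.25 to 1.40, limma adjusted p = 0.164), and it was -0.58 with replicate 3 in the fit. FANCA had 45.6 and 49.6 TPM under decitabine, against 44.3, 41.7 and 57.9 TPM under vehicle, and 103 TPM in replicate 3. The checkpoint kinase CHEK2 had 8.86 and 13.9 TPM under decitabine, against 11.5, 13.6 and 16.1 TPM under vehicle, and 26.1 TPM in replicate 3. ERCC2 had 10.1 and 9.40 TPM under decitabine, against 8.64, 9.26 and 9.36 TPM under vehicle, and 37.8 TPM in replicate 3. For TP53BP1, MSH6, FANCA, ERCC2 and CHEK2 the 95% intervals of the log2 difference lay between -1.01 and 0.68. The 14 members that were tested and not called had adjusted p from 0.164 to 0.993. LIG1, at 0 in decitabine library 1, had an adjusted p of 0.432, and of 0.0117 without decitabine library 2, a fit in which the lone decitabine library is assumed to vary like the vehicle libraries.

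In decitabine-treated resistant cells 1 member rose against vehicle, PALB2, the protein that bridges BRCA1 and BRCA2 in homologous recombination. PALB2 (chr16:23603160-23641310, minus strand) had 3.13, 3.84 and 2.59 TPM in the 3 resistant decitabine libraries, against 0 TPM in all 3 resistant vehicle libraries. It rose with a limma adjusted p of 0.0341. With all vehicle libraries at 0, PALB2 passed the filter on low values only through the decitabine group. Its entry to the test thus depended on the difference tested, and the call adds little to the values. In parental cells PALB2 was at 0 in decitabine libraries 1 and 2 and in all 3 vehicle libraries, with 12.5 TPM in decitabine replicate 3. BRCA1 was at 0 in all 6 resistant libraries. BRCA2, which loads the recombinase, had 0.104, 4.32 and 0.182 TPM under decitabine, against 0.183, 0.0746 and 0.0968 TPM under vehicle, and was not tested because of its low mean. AC008870.4, which lies opposite PALB2 over 86 bases, was at 0, 0 and 9.15 TPM under decitabine, against 0, 5.18 and 0 TPM under vehicle. The PALB2 call was lost when any of the 6 libraries was left out, with adjusted p of 0.0762 (vehicle a out), 0.0955 (vehicle b out), 0.105 (vehicle c out), 0.0934 (decitabine a out), 0.0856 (decitabine b out) and 0.0763 (decitabine c out). It was also lost with quantile scaling (0.067) and with no filter (0.147).

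Of 29 members, 19 were tested in resistant cells, 1 rose and 0 fell, and 1 had an unadjusted p under 0.05. Over all 8579 features 1695 had an unadjusted p under 0.05 and 3.59% were called, 243 up and 65 down. Rises made up 78.9% of these calls, against 66.8% with quantile scaling and 63.5% with median-ratio scaling, which gave medians of all features of -0.06 and 0.09, against 0.21 without them. The members' median log2 difference was 0.21, as was that of all features. Groups did not overlap in 2 of 19 members, PALB2 and PARP1, against 28.4% of all features. PARP1 had 1.61, 1.22 and 1.42 TPM under decitabine, against 1.01, 0.964 and 1.19 TPM under vehicle (log2 difference 0.23, SE 0.31, limma adjusted p = 0.702). RPA1, the gene called in parental cells, had 19.5, 0 and 0.713 TPM under decitabine, against 0, 0 and 0.563 TPM under vehicle. Only library a was high, and the limma adjusted p was 0.529.

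The abundant members did not pass the test in resistant cells, and their differences were within the spread between libraries. TP53BP1 had 50.5, 46.5 and 55.1 TPM under decitabine, against 52.2, 55.9 and 53.2 TPM under vehicle (means 50.7 ± 4.28 and 53.8 ± 1.90 TPM, SD, n = 3 each). MSH6 had 51.4, 56.1 and 59.5 TPM under decitabine, against 64.8, 46.1 and 55.8 TPM under vehicle. CHEK2 had 12.7, 14.5 and 8.03 TPM under decitabine, against 8.98, 10.4 and 14.9 TPM under vehicle. These groups overlapped for each of the genes. ERCC2 had 10.0, 11.7 and 12.7 TPM under decitabine, against 9.56, 12.8 and 12.3 TPM under vehicle. For TP53BP1, MSH6, FANCA, ERCC2 and CHEK2 the 95% intervals all lay between -0.74 and 0.80 on the log2 scale. Both bounds are those of CHEK2, and the intervals of TP53BP1 (-0.42 to 0.25) and MSH6 (-0.42 to 0.44) were narrower. The log2 difference of FANCI was 0.64 (SE 0.38, limma adjusted p = 0.393). All 3 decitabine libraries and 1 of the 3 vehicle libraries, a, had over 100 TPM of FANCI together with low POLG. Without vehicle library a the adjusted p was 0.0358. The 18 members tested and not called had adjusted p from 0.259 to 0.997.

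A wider list of 127 other genes of the same pathways gave 2 further calls, both in resistant cells, where they were 2 of 44 tested, against 3.59% called over all features. SLX4 (chr16:3581181-3611598, minus strand), a scaffold for the nucleases that resolve recombination intermediates, had 7.56, 6.14 and 6.51 TPM in resistant decitabine libraries, against 0 TPM in all 3 resistant vehicle libraries. It rose with a limma adjusted p of 0.0107. With all vehicle libraries at 0, SLX4 too passed the filter on low values only through the decitabine group. In parental cells SLX4 had 5.71 and 0 TPM under decitabine, against 7.34, 0 and 8.46 TPM under vehicle, and 15.7 TPM in replicate 3, so a level of 0 also occurred there in both groups. AC006111.1, which lies opposite SLX4 with all of its 329 bases, had 59.0, 66.5 and 64.1 TPM in resistant decitabine libraries, against 89.3, 135 and 96.9 TPM in resistant vehicle libraries, and 0.0047 TPM in replicate 3. REV3L (chr6:111299028-111483715, minus strand), the catalytic subunit of the translesion polymerase zeta, had 12.8, 10.1 and 11.2 TPM under decitabine, against 1.05, 2.46 and 1.80 TPM under vehicle. The means were 11.4 ± 1.36 and 1.77 ± 0.708 TPM (SD, n = 3 each), and REV3L rose by a log2 difference of 2.18 (SE 0.30, limma adjusted p = 0.0271). In parental cells REV3L had 1.84 and 1.89 TPM under decitabine, against 1.45, 1.37 and 2.22 TPM under vehicle, and 8.06 TPM in replicate 3. TRAF3IP2-AS1, whose exons lie opposite REV3L over 117 bases, had 2.37, 14.6 and 4.53 TPM in resistant decitabine libraries, against 9.68, 2.40 and 2.08 TPM in resistant vehicle libraries. The REV3L response was larger in resistant than in parental cells by 2.08 on the log2 scale (SE 0.41), which did not pass the test of the difference (limma adjusted p = 0.0932). The REV3L call in resistant cells was lost without vehicle c (adjusted p = 0.0812), without decitabine a, b or c (0.0895, 0.0726 and 0.08), with quantile scaling (0.0577) and with no filter (0.0685). SLX4 kept its call without each library in turn. Each of those fits rested on the same entry through the decitabine group, so the call adds little to the values. For the difference of responses between the lines SLX4 had a limma adjusted p of 0.41.

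**Figure D4:**
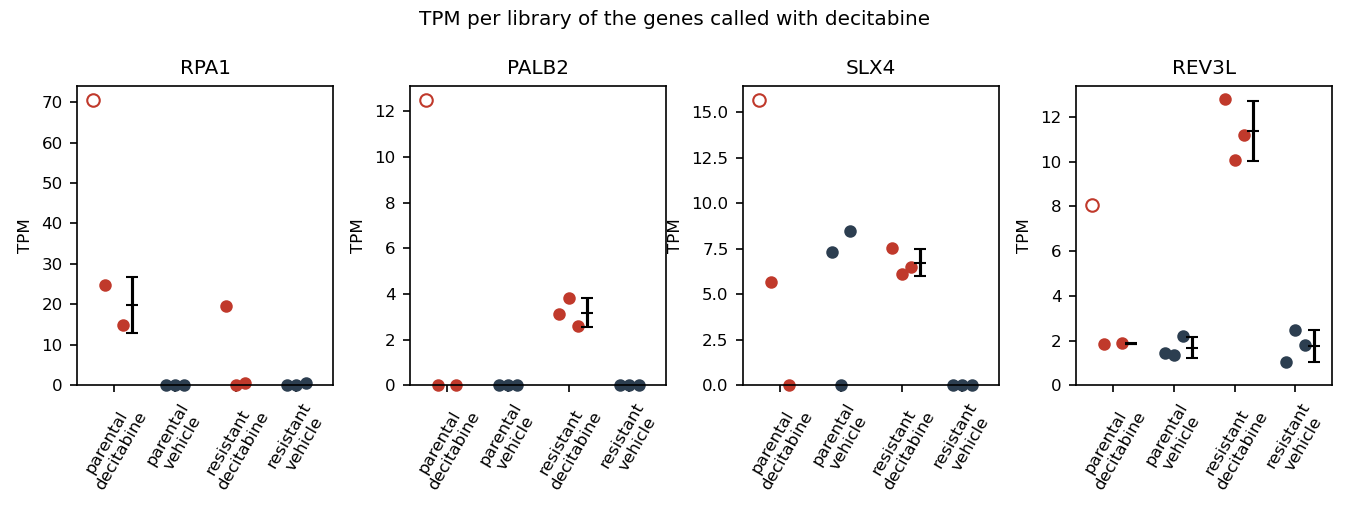
Level in TPM of the genes called in a decitabine comparison, RPA1, PALB2, SLX4 and REV3L, in every library by group, with parental decitabine replicate 3 as an open circle and mean ± SD as bars for groups without a library at 0. PALB2 lies at 2.59 to 3.84 TPM in resistant decitabine libraries and at 0 in resistant vehicle libraries, and REV3L at 10.1 to 12.8 TPM against 1.05 to 2.46 TPM.

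Of the 44 genes of the wider list tested in resistant cells, 2 rose, 0 fell and 7 had an unadjusted p under 0.05, against 1695 of all 8579 features with an unadjusted p under 0.05. These counts were near or under the shares over all features, and the median log2 difference was 0.26. The 25 genes of homologous recombination gave 9 tested and 1 risen, and the 11 genes of DNA-protein crosslink repair, translesion synthesis and direct reversal gave 4 tested and 1 risen. In parental cells 42 were tested and limma called 0, against 1.86% of all features. There 5 of 42 had an unadjusted p under 0.05, against 1461 of all 8122 features, and the median was 0.27. Of the 10 damage targets linked to p53, 2 were tested in resistant cells and 0 in parental cells, and 0 of the 2 were called by limma, with 0 at an unadjusted p under 0.05. Of the 10 end-joining genes 1 was tested in each comparison, with 0 called by limma and 0 at an unadjusted p under 0.05.

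Resistant cells were set against parental cells under vehicle to ask whether the repair genes differed before decitabine. The values come from 2 tables, each library of which was scaled on its own to the same total. FANCA had 36.5, 34.2 and 25.0 TPM in resistant vehicle libraries, against 44.3, 41.7 and 57.9 TPM in parental vehicle libraries, and the groups did not overlap. The means were 31.9 ± 6.06 TPM in resistant cells and 48.0 ± 8.73 TPM in parental cells (SD, n = 3 each), a log2 difference of -0.58 (SE 0.22, 95% interval -1.11 to -0.05), which did not pass the test (limma adjusted p = 0.224). Under decitabine FANCA had 28.4, 27.4 and 35.2 TPM in resistant cells, against 45.6 and 49.6 TPM in parental cells without replicate 3, with no overlap. The lines were not compared by a fit under decitabine. The share of all features without overlap was not counted there, so this adds little. ZNF276 on the other strand had 131, 129 and 146 TPM in resistant vehicle libraries, against 104, 113 and 110 TPM in parental vehicle libraries. TP53BP1 had 52.2, 55.9 and 53.2 TPM in resistant cells, against 43.9, 43.6 and 44.7 TPM in parental cells (log2 difference 0.28, SE 0.11, limma adjusted p = 0.262). ATM had 0, 2.63 and 0 TPM in resistant vehicle libraries, against 2.89, 3.10 and 3.70 TPM in parental vehicle libraries (limma adjusted p = 0.260). Under decitabine ATM had 0.150, 4.15 and 0 TPM in resistant cells, against 4.03 and 3.29 TPM in parental cells, where the groups overlapped. RPA3, the smallest RPA subunit, had 4.61, 4.76 and 4.21 TPM in resistant cells, against 0, 2.50 and 2.39 TPM in parental cells (limma adjusted p = 0.284).

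Between the lines 15 members were tested and limma called 0, with 1, FANCA, at an unadjusted p under 0.05. Over all 7761 features 2.8% were called, 134 higher and 83 lower in resistant cells. Higher features made up 61.8% of the calls, against 46.7% with quantile and 46.7% with median-ratio scaling. The groups did not overlap in 5 of 15 members, against 28.1% of all features: TP53BP1, ERCC2 and RPA3 were higher and FANCA and ATM lower in resistant cells. The members' median log2 difference was -0.16, against 0.11 over all features, and adjusted p ran from 0.224 to 0.979. For TP53BP1, MSH6, FANCA, ERCC2 and CHEK2 the 95% intervals lay between -1.11 and 0.80. Of the wider list 42 genes were tested and limma called 0, against 2.8% of all features, with 11 at an unadjusted p under 0.05, against 1496 of all 7761 features, a smallest adjusted p of 0.0756 and a median of 0.05.

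**Figure D5:**
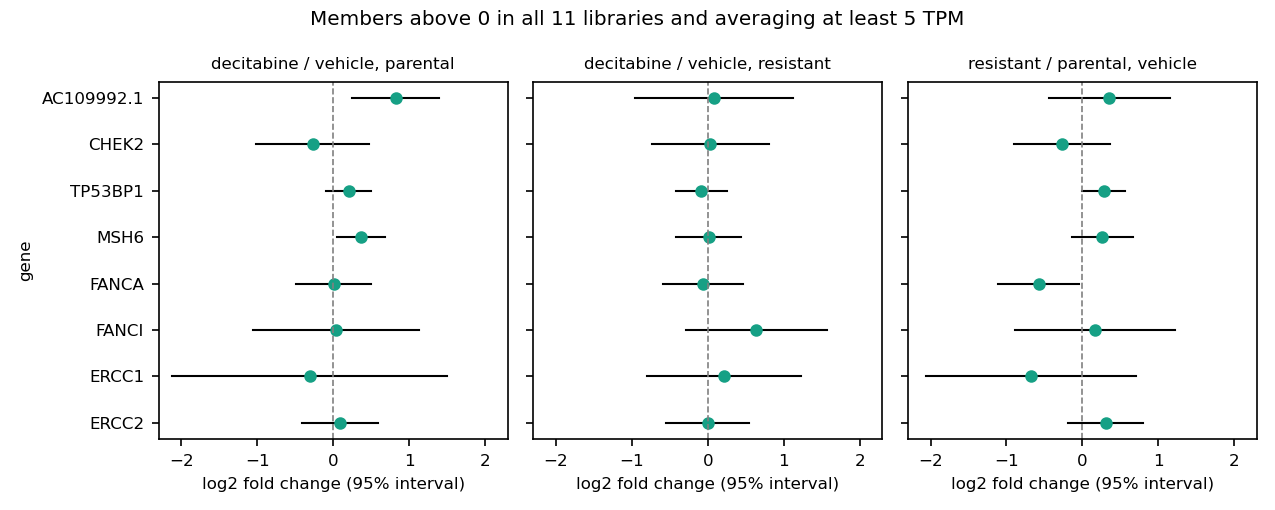
Log2 differences with 95% intervals (limma) for the 8 members above 0 in all 11 libraries that averaged 5 TPM or more, with a panel each for decitabine in parental cells, decitabine in resistant cells, and resistant against parental cells under vehicle. None of the 8 passed the adjusted threshold in any panel. The intervals of AC109992.1 and MSH6 in parental cells (0.25 to 1.40 and 0.05 to 0.68) and of FANCA between the lines (-1.11 to -0.05) lie off 0.

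The difference between the responses of the lines was tested in a model of the 4 group means. Of 17 members tested, limma called 0. Only 1, RAD50, had an unadjusted p under 0.05 (limma adjusted p = 0.408), against 857 of all 8505 features. RAD50 had 6.30, 4.80 and 0 TPM in resistant decitabine libraries, against 0 TPM in all 3 resistant vehicle libraries. In parental cells RAD50 had 0 and 0 TPM under decitabine, against 0, 6.47 and 5.01 TPM under vehicle, and 20.0 TPM in replicate 3. TH2LCRR on the other strand had 86.8, 89.0 and 95.9 TPM in resistant decitabine libraries, against 110, 131 and 124 TPM in resistant vehicle libraries. Over all 8505 features 0.364% were called, 16 toward resistant and 15 toward parental cells. The members' median difference of responses was 0.30, against 0.00 over all features. RPA1, which was called in parental cells, had an adjusted p of 0.538 for the difference, and without resistant decitabine library a, in which it had 19.5 TPM, 0.0324. PALB2 was under the filter of this fit, so its difference between the lines was not tested. For TP53BP1, MSH6, FANCA, ERCC2 and CHEK2 the 95% intervals of the difference lay between -0.85 and 1.30.

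Of the 29 members, 10 were tested in none of the 4 comparisons because their mean was under 1 TPM: CHEK1, BRCA1, BRCA2, MRE11, NBN, RPA2, PMS2, XRCC5, XRCC6 and LIG4. CHEK1, the kinase downstream of ATR, had 23.4 TPM in parental decitabine replicate 3, at most 1.67 TPM in resistant cells and 0 in the other 5 parental libraries. MRE11, the nuclease of the break-sensing complex, had 9.37 TPM in replicate 3 and at most 0.639 TPM elsewhere. Its partner NBN had 19.0 TPM in replicate 3 and at most 1.07 TPM elsewhere, and RPA2 had 78.5 TPM and at most 1.25 TPM. For these genes no response to decitabine and no difference between the lines could be measured outside replicate 3.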

How the data were processed

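The deposited tables, 1 for each line, hold values with an equal total in each library, which were read as TPM computed by the authors. The submitters' processing notes name HISAT2, StringTie, DESeq2 and build hg38. For their versions, the annotation and the strand setting, nothing is stated in the sources used here. Libraries were of polyadenylated RNA and kept strand, per the labels' protocols. Of 60656 features, 1166 with repeated names were left out and 59490 used by name. Names, not the identifiers of the parental table, were used because those identifiers do not match the names beside them. Parental columns carry the sample titles and were matched by them, and those of the resistant table to groups only.

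Differences of log2(TPM + 1) were fitted with limma 3.58.1, with a mean-variance trend, in R 4.3.3. Features that averaged 1 TPM or more across the libraries of a fit were tested, and called at a Benjamini-Hochberg adjusted p under 0.05 over all features tested. A gene at 0 in a whole group could pass this filter only through libraries of another group. Differences of log2(TPM + 1) understate the change of low genes. Parental decitabine replicate 3 was left out of the fits. The fitting code was tested on simulated data. Exon overlap came from GENCODE 29, which the submitters did not necessarily use.

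The members, lists and tests were chosen with earlier results of these data known. Values in every library are given for members that were called or average at least 5 TPM over the 11 libraries, for called genes of the wider list, and for others where a result turns on them; these and the genes of the last section were chosen after their values were seen. Alternatives were quantile and median-ratio scaling, no filter, a stricter filter of 5 TPM, 0.1 as pseudocount, a threshold of 0.01 on the adjusted p, leaving out each library in turn, including replicate 3, and the replicate number as a block.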

Additional observations from a re-analysis of the deposited data

Results flagged for a closer look

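Parental decitabine replicate 3, which enters none of the comparisons, held signal in members that were low or at 0 in the vehicle libraries. It was higher than all 3 parental vehicle libraries in 24 of 29 members. The share over all features was not counted for this criterion. Of coding members with at least 5 TPM there, 81.5% were above all 11 other libraries. The share was 84.35% over all coding genes with that level, so the excess was not particular to the members. BRCA1 had 21.6 TPM, PMS2 16.6 TPM and LIG4 11.5 TPM in replicate 3, and all 3 genes were listed at 0 in the 3 vehicle libraries and in the other 8. The label puts this library with the decitabine group, and decitabine replicates 1 and 2 were at 0 for the same genes.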

How the results depend on the processing

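The number of called features moved with the settings. In parental cells 151 features were called, against 35 with no filter, 23 at an adjusted p under 0.01 and 14 to 264 without each library in turn. With replicate 3 included limma called 0 (262 at an unadjusted p under 0.05). With the replicate number as a block it called 0 without replicate 3 (978 unadjusted) and 0 with it (234 unadjusted). In resistant cells 308 were called, against 196 with quantile scaling, 73 with no filter, 194 with a mean of at least 5 TPM, 39 at an adjusted p under 0.01 and 90 to 197 without each library. Between the lines under vehicle 217 were called, against 68 with no filter, 37 at an adjusted p under 0.01 and 58 to 191 without each library. For the difference of responses 31 were called, against 7 with no filter, 6 at an adjusted p under 0.01, 1 with replicate 3 and 12 to 47 without each library.

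Of the members, 1 was called in parental cells. Limma called 0 with no filter, with a mean of at least 5 TPM and at an adjusted p under 0.01 (3 at an unadjusted p under 0.05 in each), 0 with replicate 3, and 0 with the replicate block with and without it (1 unadjusted in each). Without each library 0 to 2 were called, 2 being RPA1 and LIG1 without decitabine 2. In resistant cells 1 was called, against 0 by limma with quantile scaling (1 unadjusted), no filter (2 unadjusted), a mean of at least 5 TPM (0 unadjusted) and an adjusted p under 0.01 (1 unadjusted), and 0 to 1 without each library. For the difference 0 to 1 were called without each library, and between the lines 0 under every setting run. With replicate 3 included, with and without the block, the log2 difference in parental cells was -0.58 for AC109992.1 and -0.39 for TP53BP1, a change of sign. RPA1 had adjusted p from 0.0117 to 0.711 over its alternatives, PALB2 from 0.0291 to 0.147, REV3L from 0.0271 to 0.0895 and SLX4 from 0.0107 to 0.0463. The cause of these changes was not tested.

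Same-numbered parental libraries did not deviate together (correlations -0.0111 and -0.0121), so the numbers are not taken as pairs. No paired analysis was possible in resistant cells because the columns carry no sample of their own. A count test with DESeq2 was not run, since the values are TPM. Depth is unknown, and the groups hold 2 or 3 libraries each.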

Other observations

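Of the wider list, 5 genes had some of the smallest adjusted p short of the threshold and were chosen after their values were seen. All but ATRIP have an exon of another gene opposite, so reads of the partner cannot be told apart. Parental decitabine replicate 3 had 136 TPM of DDB1, 93.9 TPM of XRCC3, 32.4 TPM of NEIL1, 16.8 TPM of REV1 and 24.8 TPM of ATRIP. DDB1, a subunit of the complex that recognises ultraviolet lesions, had 20.4, 32.4 and 25.3 TPM in resistant decitabine libraries, against 58.1, 58.0 and 45.2 TPM in resistant vehicle libraries (limma adjusted p = 0.0728, and 0.0421 to 0.177 over the alternatives, the lowest with median-ratio scaling). In parental cells it had 32.2 and 41.5 TPM under decitabine, against 34.8, 28.4 and 29.6 TPM under vehicle. XRCC3, a recombination paralogue, had 175, 136 and 181 TPM in resistant decitabine libraries, against 93.9, 49.7 and 31.2 TPM in resistant vehicle libraries (limma adjusted p = 0.0996, and 0.0418 to 0.242 over the alternatives, the lowest without vehicle a). In parental cells XRCC3 had 133 and 96.6 TPM under decitabine, against 128, 116 and 126 TPM under vehicle. The glycosylase NEIL1 had 55.7, 49.2 and 65.3 TPM in resistant decitabine libraries, against 34.9, 26.8 and 32.6 TPM in resistant vehicle libraries (limma adjusted p = 0.0767, range 0.0687 to 0.192). In parental cells NEIL1 had 59.8 and 62.4 TPM under decitabine, against 49.1, 46.9 and 44.7 TPM under vehicle. The translesion polymerase REV1 had 14.2 and 16.8 TPM in parental decitabine libraries, against 6.02, 7.24 and 6.59 TPM in parental vehicle libraries (limma adjusted p = 0.0886, range 0.0803 to 0.711). In resistant cells REV1 had 8.44, 6.88 and 13.1 TPM under decitabine, against 4.99, 7.25 and 9.34 TPM under vehicle, where the groups overlapped. ATRIP, the partner of ATR, had 5.45, 5.76 and 6.59 TPM in resistant vehicle libraries, against 2.04, 1.87 and 2.37 TPM in parental vehicle libraries (limma adjusted p = 0.0756, range 0.0756 to 0.207). The groups did not overlap in any of the 5 comparisons whose adjusted p is given, which adds little for genes chosen by small p, since 39.4% (decitabine, parental), 28.4% (decitabine, resistant) and 28.1% (between the lines) of all features did not overlap either.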
